A study of Mus musculus with 18 samples.

Results

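The comparison set high endothelial cells (HECs) of lymph nodes against endothelial cells of blood vessels (BECs) in the mammary fat pad, both from mice without tumours. It rests on 6 of the 18 libraries of the series, 3 labelled HEC normal and 3 labelled BEC normal. The methods of the study describe wild-type C57BL/6 mice, female and 5 to 6 weeks old when obtained, that received no tumour cells. Cells lacking CD45 and rich in CD31 were sorted from digested tissue, and those carrying peripheral node addressin (PNAd), the sugar epitope of high endothelial venules, were taken as HECs from inguinal lymph nodes, and those without it as BECs from fat pads. The nodes were digested with collagenase P, dispase II and DNase I, and the fat pads with collagenase I for a shorter time. Cell type, tissue and digestion therefore change together in these groups and cannot be told apart. Nothing in the labels says whether a library came from 1 mouse or a pool, so the spread between the 3 libraries of a group may be partly technical.

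High endothelial venules are the vessels through which blood lymphocytes enter lymph nodes. Their tall endothelial cells coat sialomucins such as GLYCAM1 with fucosylated, sulfated sugars, the ligands of L-selectin, and FUT7 and CHST4 are enzymes that add the fucose and the sulfate. Endothelium of a fat depot instead exchanges fluid, fatty acids and oxygen with the tissue, and rests on a basement membrane of type IV collagen and laminin shared with pericytes.

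Levels below are DESeq2 normalised counts, which are counts per gene corrected for library size, and log2 fold changes are HEC normal over BEC normal, ± SE. Calls required an adjusted p under 0.05 in DESeq2 together with more than a 2-fold difference. Of 18511 tested genes with a mean value of at least 10, 3165 (17.1%) were called higher in HEC normal, 2800 (15.1%) were called lower, and 12546 were not called. Counts within the gene lists below are to be read against these shares. The median log2 fold change over all tested genes was 0.0046. In 3002 genes called higher and 2735 called lower, no library of one group reached into the range of the other. A call favours genes whose groups stand apart, so these counts follow largely from the calls. The deposited values rise in steps of about 3.7, so 1 unit is not 1 fragment. Library totals were 67093697 to 71292424 units in HEC normal and 59242436 to 77370066 in BEC normal.

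**Figure D1:**
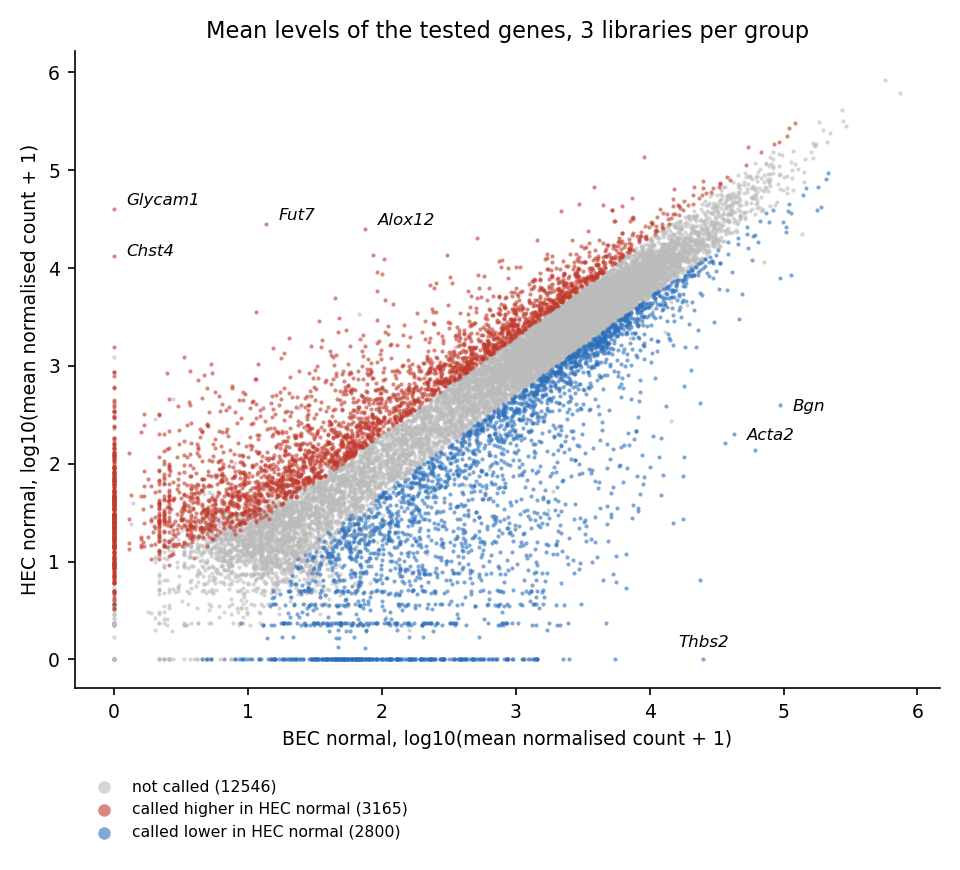
Mean level of each tested gene in BEC normal (horizontal axis) and HEC normal (vertical axis), as log10 of the normalised count plus 1, 1 point per gene. Red points are the 3165 genes called higher and blue points the 2800 called lower in HEC normal, and Thbs2 lies on the line of 0 in HEC normal, with Bgn and Acta2 among the blue points of high BEC normal level.

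The markers followed the labels in part. Glycam1, on the minus strand of chromosome 15 (GRCm38), was at 40089, 39129 and 40336 in the HEC normal libraries and at 0 in every BEC normal library. Taking 3 counting steps (11.1 units) as the upper limit of the level behind a value of 0, Glycam1 in HEC normal was at least 3590-fold higher. The minima given below rest on the same limit. Fut7 was at 28069, 27120 and 29599 in HEC normal against 0, 9 and 28 in BEC normal (log2 fold change 11.13 ± 1.02). The groups did not overlap for either gene. Chst4 was at 19906 and 20205 in HEC normal replicates 1 and 3 but at 4 in replicate 2, against 0 in the BEC normal libraries. Without replicate 2 its call stood, and that library did not stand apart in Glycam1 or Fut7.

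Other high endothelium markers did not follow. Chst2, the second sulfotransferase of the L-selectin ligand, was at 0 in all HEC normal libraries and at 1284, 1598 and 1410 in BEC normal, and so at least 129-fold lower in HEC normal. Selp, which encodes P-selectin, was lower in HEC normal (log2 fold change −1.32 ± 0.04). Gcnt1, the core 2 branching enzyme, and Enpp2, which encodes autotaxin, were not called, with Enpp2 at 157, 8 and 272 in HEC normal and 95, 92 and 66 in BEC normal. Madcam1 and Cd300lg did not reach the level filter and were at 0 in HEC normal. Ccl21a, the chemokine of nodal high endothelium, was at 0 in all 6 libraries, but it has near-identical copies in the genome, so its value is uncertain. Of the 10 listed high endothelium markers, 8 were tested, 3 were called higher and 2 lower.

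The general endothelial markers were high in both groups. Pecam1, the endothelial adhesion gene used in the sort, was at 52865, 53365 and 49576 in HEC normal and 59954, 55640 and 58287 in BEC normal. Cdh5, the cadherin of endothelial junctions, was at 51436, 47635 and 48830 against 66204, 59767 and 63152. Both genes passed on adjusted p but differed by less than 2-fold, so neither was called. Of 14 listed endothelial markers none was called higher, and 3 were lower: Kdr, the main VEGF receptor (−2.20 ± 0.08), Ramp2, a subunit of the adrenomedullin receptor (−1.54 ± 0.10), and Cldn5, a claudin of endothelial tight junctions. Cldn5 was at 60, 27 and 137 in HEC normal and at 15828, 19545 and 17939 in BEC normal.

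**Figure D2:**
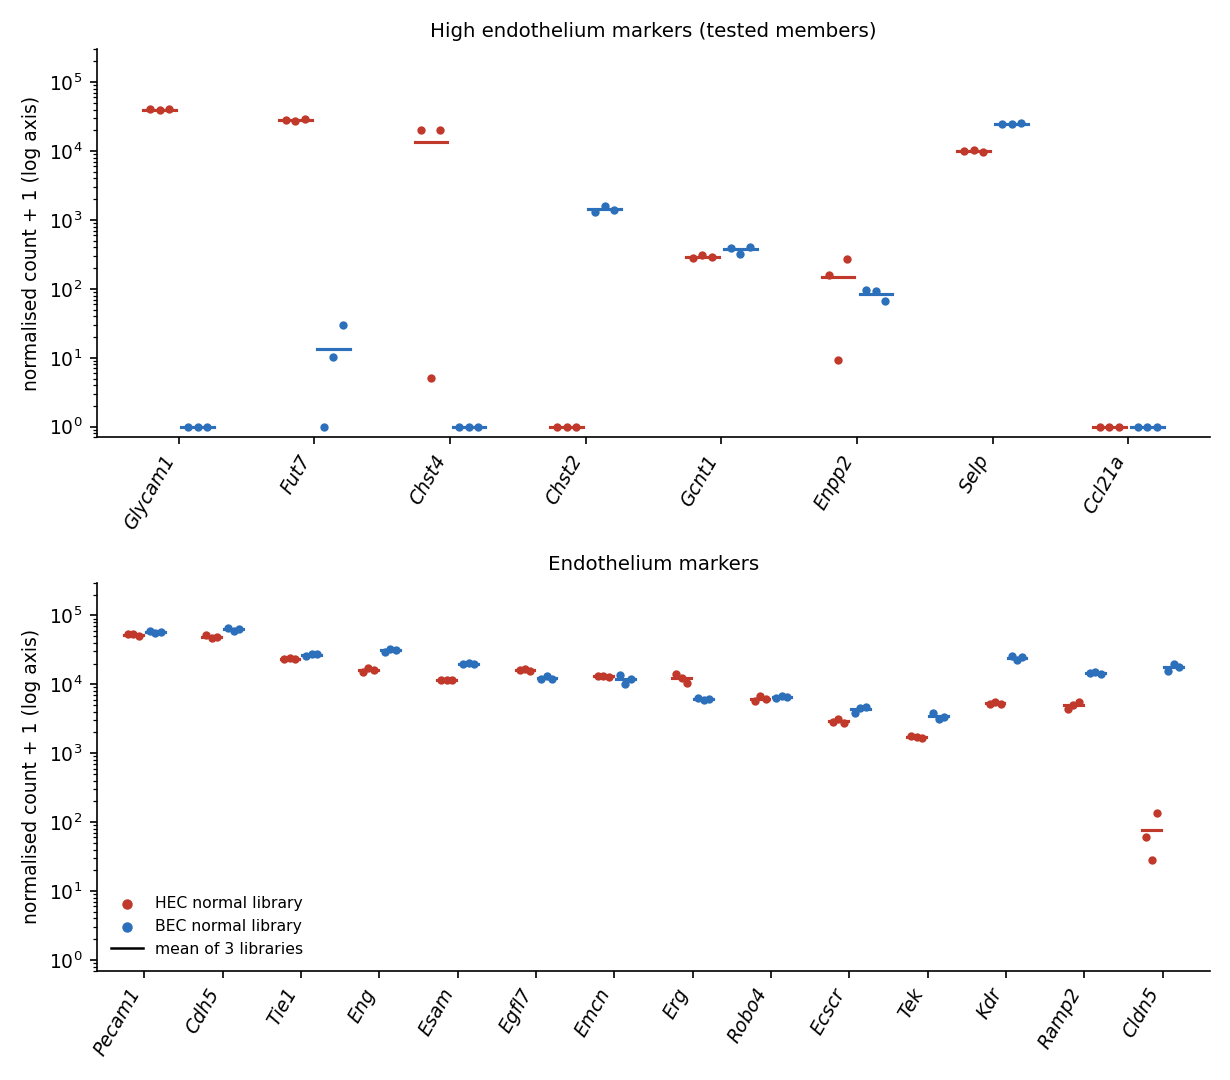
Normalised count plus 1, on a log axis, of each library (points) with the mean of 3 libraries (bars) for the tested high endothelium markers (upper panel) and the endothelium markers (lower panel), HEC normal in red and BEC normal in blue. Glycam1 and Fut7 are high in all 3 HEC normal libraries and Chst4 in 2 of them, whereas Chst2 and Ccl21a sit at 0 in HEC normal and Pecam1 and Cdh5 are at 47635 to 66204 in both groups.

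The promoters of Glycam1, Chst4 and Fut7, the 3 high endothelium markers called higher, are shown from RefSeq for GRCm38.p6, from 250 bases before to 50 after each start, read 5′ to 3′ on the gene's strand. Capitals mark GGAAG or its reverse complement CTTCC, a longer form of the GGAA core read by ETS factors such as ERG, an endothelial regulator. Other GGAA sites are not marked. Fut7 has 2 listed starts.
Glycam1, chr15:103565032-103565331, minus strand: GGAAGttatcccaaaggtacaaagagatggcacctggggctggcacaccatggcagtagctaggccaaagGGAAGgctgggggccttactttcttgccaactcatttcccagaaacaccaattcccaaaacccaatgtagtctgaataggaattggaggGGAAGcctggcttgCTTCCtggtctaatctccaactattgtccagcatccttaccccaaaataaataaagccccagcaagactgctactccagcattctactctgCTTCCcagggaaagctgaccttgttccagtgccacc
Chst4, chr8:110039285-110039584, minus strand: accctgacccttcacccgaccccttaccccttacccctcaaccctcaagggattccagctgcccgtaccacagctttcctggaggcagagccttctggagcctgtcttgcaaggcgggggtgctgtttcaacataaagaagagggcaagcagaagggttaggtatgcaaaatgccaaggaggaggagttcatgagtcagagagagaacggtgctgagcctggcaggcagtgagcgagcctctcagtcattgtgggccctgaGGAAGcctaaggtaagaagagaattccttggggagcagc
Fut7, chr2:25422992-25423291, plus strand: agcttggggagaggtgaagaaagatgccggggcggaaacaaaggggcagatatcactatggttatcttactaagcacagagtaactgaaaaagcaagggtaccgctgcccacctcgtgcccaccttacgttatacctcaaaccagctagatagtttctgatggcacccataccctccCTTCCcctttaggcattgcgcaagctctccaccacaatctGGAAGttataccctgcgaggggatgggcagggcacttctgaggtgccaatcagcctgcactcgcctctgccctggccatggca
Fut7, chr2:25423444-25423743, plus strand: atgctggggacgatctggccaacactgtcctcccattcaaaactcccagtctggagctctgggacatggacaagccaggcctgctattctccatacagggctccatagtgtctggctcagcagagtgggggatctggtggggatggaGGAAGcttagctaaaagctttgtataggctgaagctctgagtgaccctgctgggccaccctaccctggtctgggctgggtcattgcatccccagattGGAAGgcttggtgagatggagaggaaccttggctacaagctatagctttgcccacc

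The marked string occurs 5 times in the Glycam1 window, 1 time in that of Chst4 and 2 times in each Fut7 window. It is common: 71.4% of all 32851 promoters in the table hold it on either strand, as do 73.1% of those of genes called higher, 71.6% of those called lower and 76.6% of those tested and not called. None of the 4 windows holds TATAAA on either strand, which 13.6% of all promoters do. The Glycam1 window holds no CpG dinucleotide. Among called genes, the median ratio of observed to expected CpG was 0.53 for promoters of genes higher in HEC normal and 0.63 for those of lower genes, against 0.75 for tested genes that were not called. These are descriptions of the windows and no measure of binding.

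Several features of the libraries bear on every result that follows. Between libraries of a group, Pearson's r across genes on variance-stabilised values was 0.99 or more. HEC normal libraries had r of 0.909 to 0.912 with BEC normal but 0.950 to 0.955 with BECs of tumours (BEC tumour), and BEC normal had 0.933 to 0.945 with BEC tumour. Transcripts from the Y chromosome were present in BEC normal, although the mice were described as female. Summed over Ddx3y, Eif2s3y, Kdm5d and Uty, chosen after their values were seen, they came to 1041.5, 710.8 and 809.7 in BEC normal and to 12.2, 20.4 and 11.4 in HEC normal. Xist, the RNA of the inactive X, was found in all 6 libraries, at 8586 to 15477 in BEC normal and 31783 to 34308 in HEC normal. The origin of the Y-linked signal was not tested, and it touches every BEC normal library.

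Transcripts of liver were found in HEC normal. Alb, the gene of serum albumin, was among the genes with the largest differences, at 909, 1257 and 1576 in HEC normal and 7, 0 and 0 in BEC normal. Of 16 liver-secreted or liver-enriched genes picked after their values were seen, which included Apoa1, Fgb, Ahsg and Serpina3k, the summed level was 3093.4 to 4230.4 in HEC normal and 706.5 to 814.4 in BEC normal, where most of it came from Trf. Genes of this kind also fall in 2 of the listed families. Of 32 tested serpins, 16 (50%) were called higher and 6 lower, the higher including 5 Serpina1 copies that share near-identical sequence, and of 37 cytochrome P450 genes 14 (37.8%) were higher and 6 lower, the higher including the liver gene Cyp3a11. The part of liver RNA in those counts was not tested.

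Genes of dividing cells were abundant in both groups, although neither came from a tumour-bearing mouse. Mki67, a marker of cycling cells, was at 23112, 23246 and 21884 in HEC normal and 9410, 4015 and 5137 in BEC normal (1.88 ± 0.38). Top2a, the topoisomerase of dividing cells, was at 35253 to 37374 in HEC normal and 24062 to 34874 in BEC normal and was not called. Of 34 replication and mitosis genes tested, 4 (11.8%) were higher, 1 (2.94%) was lower and 29 were not called, with a median log2 fold change of 0.17. Cdkn2a, the locus of the cell-cycle inhibitors p16 and p19ARF and again chosen after its values were seen, was at 9545 to 11376 in BEC normal and at 167 to 210 in HEC normal, without overlap. Cdkn1a, the gene of the inhibitor p21, ran the other way, at 60725 to 63023 in HEC normal and 31687 to 36043 in BEC normal, and Cdk1, the mitotic kinase, was at 11192 to 11659 and 13311 to 16726. Neither was called, and Trp53 was between 17002 and 20841 in all 6 libraries. The sources used here do not say that samples were exchanged or that cells were grown in culture before RNA was taken, and neither was tested. Every difference is therefore one between libraries that carry these labels.

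Markers of other cell types were summed per library. The pericyte and smooth muscle list summed to 2243 to 2412 in HEC normal and 63931 to 67798 in BEC normal, the fibroblast list to 1456 to 1656 and 17527 to 18054, and the Schwann cell and neuron list to 165 to 251 and 5744 to 7796. Beside the high endothelium list, the T cell, B cell, mammary epithelium, adipocyte, lymph node stroma and myeloid lists summed higher in HEC normal. Nearly all of the adipocyte sum was Pnpla2, a lipase of wide use, while Plin1 and Lep were at 0 in HEC normal. For T cells, Cd3d, Cd3e, Cd3g and Cd8a were at 0 in all 6 libraries, and for B cells Ms4a1 was. Most of the myeloid sum was Cd68, a lysosomal protein, at 32610 to 34239 in HEC normal and 7070 to 7967 in BEC normal, while Ptprc, the gene of CD45, was at 12 to 30 and 8 to 25. The platelet and erythroid list summed to 1336 to 1628 in HEC normal and 1667 to 2045 in BEC normal. Its members moved in both directions. Of 9 tested, Gp9, Itga2b and Hba-a2 (33.3%) were called higher and Pf4 (11.1%) lower. Across settings 1 to 4 of them were called higher. Lyve1, shared by lymphatic vessels and some other endothelium, was at 11889 to 15830 in HEC normal and 13531 to 14928 in BEC normal, but Prox1, the master factor of lymphatic endothelium, did not exceed 19 in any library. The lymphatic list summed to 19541 to 23470 in HEC normal and 26458 to 27132 in BEC normal. Of its 8 tested members Pdpn and Pard6g (25%) were called lower and Reln (12.5%) higher. In bulk libraries fewer cells of a type and less RNA per cell cannot be told apart.

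Ranked by log2 fold change among protein-coding genes with a mean of at least 1000 in the higher group, the 12 highest in HEC normal were Glycam1, Chst4, Prss52, Fut7, Alb, Alox12, Cyp19a1, Atg9b, Hoxb9, Ccl4, Ifi209 and Sprr2a1. Alox12, the platelet-type 12-lipoxygenase that makes 12-HETE from arachidonic acid, was at 24203, 25145 and 25353 in HEC normal and 84, 66 and 72 in BEC normal (8.39 ± 0.18). Per kilobase of exon its mean level in HEC normal was 6096 normalised counts, against 18683 for Glycam1 and 12001 for Fut7. Cyp19a1, the aromatase of oestrogen synthesis, was at 1145, 985 and 1042 against 7, 6 and 0. Ccl4, a chemokine for T cells and monocytes, was at 2064, 1913 and 1794 against 42, 0 and 15. Ifi209, an interferon-inducible gene of the AIM2-like family, differed by 6.63 ± 0.28. The groups did not overlap for these genes, which were ranked by their difference in the same libraries. Exons of Atg9b overlap those of Nos3 and exons of Sprr2a1 those of its near copy Sprr2a2, so both values are uncertain.

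The 12 lowest included Thbs2, Obsl1, Prrx2, Kif1a, Pir, Chst2, Cthrc1, Mark1, Stmn2, Megf10 and Has2, and each of these was at 0 in the 3 HEC normal libraries. Thbs2, which encodes the matricellular protein thrombospondin-2, was at 26562, 23114 and 25992 in BEC normal, and so at least 2272-fold lower in HEC normal. Has2, the main hyaluronan synthase, was at 1506, 1067 and 1240 and at least 115-fold lower. Prrx2, a transcription factor better known from mesenchyme, was at 2300, 2297 and 2207 in BEC normal. Among all called genes, 16 were at 0 in every HEC normal library with a mean of at least 1000 in BEC normal, whereas 3 were at 0 in every BEC normal library with such a mean in HEC normal.

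The kinds of genes called also differed between the directions. Of 14454 tested protein-coding genes 2058 were higher and 2405 lower. Of 535 long intergenic RNAs 239 were higher and 48 lower, and of 584 antisense RNAs 186 were higher and 45 lower. The strand setting of the counting is not stated, so antisense genes cannot be told from their partners. The called higher genes took up 14.3% ± 0.128 of the units of a HEC normal library and 4.79% ± 0.0675 of a BEC normal library (mean ± SD, n = 3). The called lower genes took up 4.28% ± 0.0157 and 14.2% ± 0.289. These genes were called in the same libraries, so the direction of both differences was set by the choice.

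The most abundant genes were shared. Outside the mitochondrial genome, Ftl1, the ferritin light chain, stood at 305591 normalised counts per kilobase in HEC normal and 205551 in BEC normal. The ribosomal protein gene Rplp1, the elongation factor gene Eef1a1, the galectin gene Lgals1 and the calcium-binding protein gene S100a11 were among the 10 highest per kilobase in both groups, and none of them was called. B2m, the light chain of MHC class I, was among the 10 in HEC normal, at 160422 per kilobase against 92486. With the longest transcript as the length, neither S100a11 nor B2m ranked among the 10. Small RNA genes inside Ftl1, Eef1a1 and Rpl19 and pseudogenes of mitochondrial sequence also ranked there, and their values cannot be told from those of their hosts or parents. The 89 genes with names of cytoplasmic ribosomal proteins held 8.86% ± 0.197 of units in HEC normal and 6.31% ± 0.471 in BEC normal. Of the 81 protein-coding ones tested, 14 (17.3%) were higher, a share near the 17.1% of all genes, and 2 were lower. Their median log2 fold change was 0.45.

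**Figure D3:**
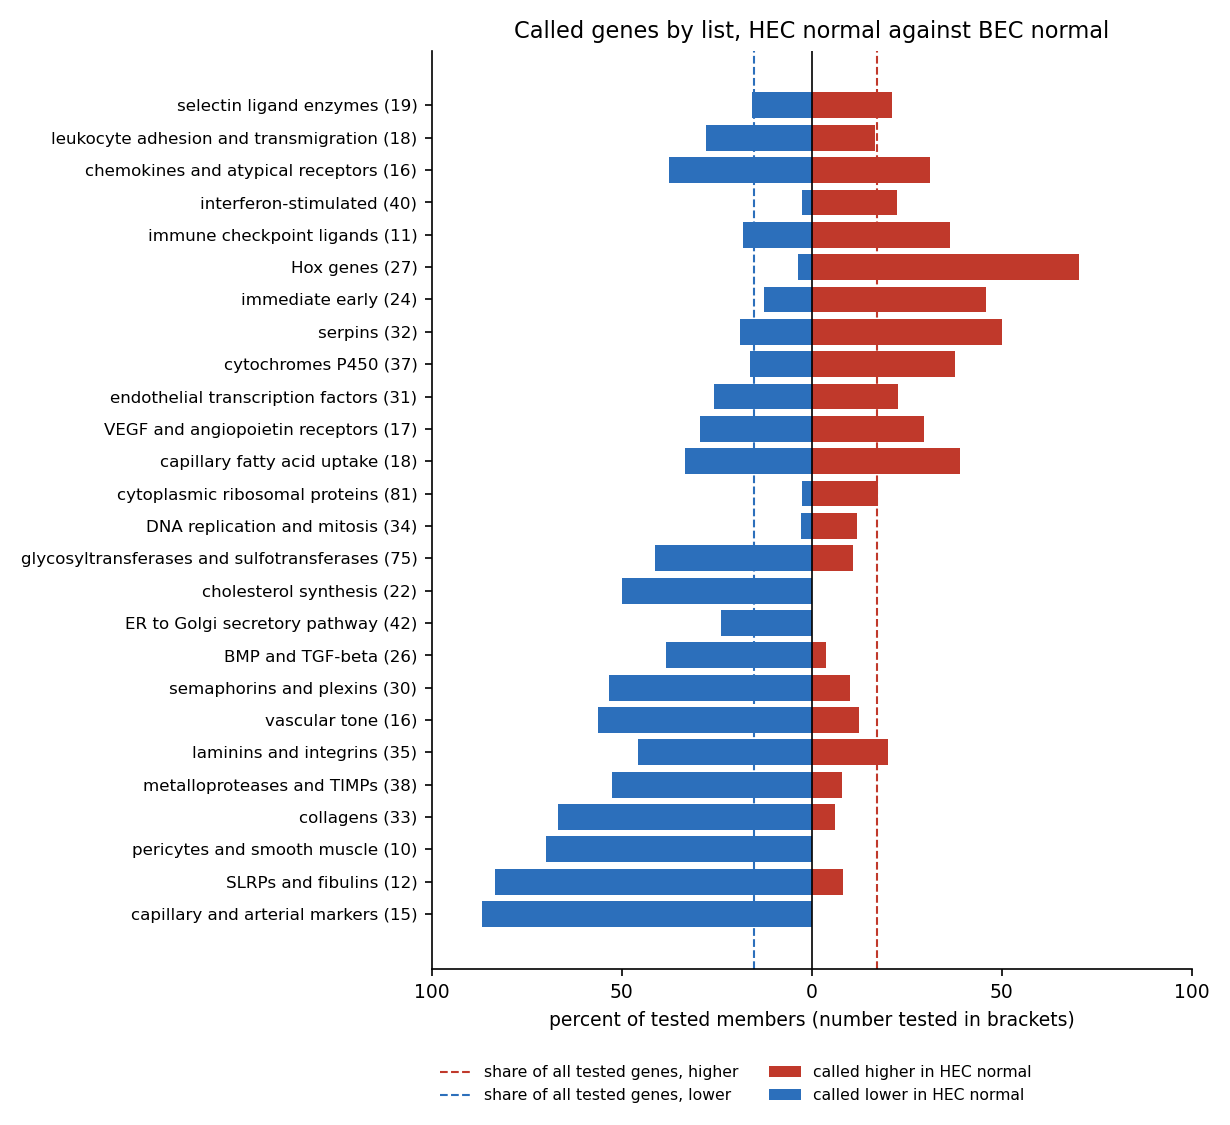
Percent of the tested members of 26 gene lists called higher (red, to the right) or lower (blue, to the left) in HEC normal, with the number tested in brackets and dashed lines at the shares over all tested genes, 17.1% and 15.1%. Hox genes reach 70.4% on the right, and the fibulin, collagen, mural and capillary lists reach 66.7% to 86.7% on the left.

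Genes that make the sugars of L-selectin ligands moved in both directions, in shares near those of all genes. Of 19 selectin ligand enzymes, 4 (21.1%) were higher and 3 (15.8%) lower, against 17.1% and 15.1% of all tested genes. Besides Fut7 and Chst4, the higher genes were B3gnt3, which extends core 1 glycans, at 11864, 11015 and 11494 in HEC normal against 2885, 3555 and 3254 in BEC normal, and C1galt1, the core 1 synthase (1.51 ± 0.09). B4galt1, a galactosyltransferase of wide use, was not called, at 14710 to 15857 against 11041 to 12219. In the wider family of glycosyltransferases and sulfotransferases, 8 of 75 tested members were higher and 31 (41.3%) lower, with a median of −0.79. Galnt1, which starts O-glycans on mucins, was among the lower, at 4167 to 5109 against 16701 to 19500 (−1.91 ± 0.09).

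Among the other carriers of these sugars, Cd34 was at 55650 to 58116 in HEC normal and 32223 to 36830 in BEC normal, without overlap, and passed on adjusted p but not on fold (0.74 ± 0.05). In the other direction, Podxl, which encodes podocalyxin, was at 10557 to 10782 and 20404 to 21333 (−0.98 ± 0.04), not called except without BEC normal replicate 2 (−1.01) or a fold threshold. Podxl2, which encodes endoglycan, was lower, at 0, 0 and 22 in HEC normal against 398 on average in BEC normal. Adhesion molecules for leukocytes gave 3 (16.7%) higher and 5 (27.8%) lower of 18 tested, against 17.1% and 15.1% of all genes. Icam2 was lower (−1.27 ± 0.15) and Itga6, an integrin of laminin adhesion, was lower (−1.77 ± 0.11), while Pvr, the ligand of TIGIT and CD226, was higher at 13442, 12043 and 12325 against 5105, 5495 and 5327.

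Chemokine genes moved in both directions, with 5 (31.2%) of 16 tested higher and 6 (37.5%) lower (median −0.50). Cxcl10, a CXCR3 ligand that interferon induces, was at 39561, 37387 and 40210 in HEC normal and 4725, 5564 and 5355 in BEC normal (2.91 ± 0.06). Ccl2, the main monocyte chemokine, was lower, at 14220, 12704 and 13899 against 29331, 33491 and 31185. Interferon-stimulated genes were higher in 9 of 40 (22.5%) and lower in 1 (2.5%), with a median of 0.47. Over all tested genes the shares were 17.1% and 15.1%. Rsad2, which encodes viperin, was at 69058, 64453 and 69575 against 4041, 3615 and 3915 (4.13 ± 0.07), and Ifit3 at 66841, 61969 and 64451 against 13946, 15813 and 15762. Ifit3 and Ifit3b are near copies and may exchange reads. Oasl1 was at 29411, 57326 and 30452 in HEC normal, above every BEC normal library, with replicate 2 well above the others. Ifitm3 and Bst2, the highest of the list per kilobase of exon in both groups, were not called.

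Antigen presentation and checkpoint genes gave a mixed picture. Of 17 class I and processing genes none was called higher and 4 (23.5%) were called lower, yet the median log2 fold change was 0.33. B2m (0.79 ± 0.04) and H2-D1 (0.32 ± 0.09), a classical class I gene, passed on adjusted p with higher values in HEC normal but not on fold. The lower genes were Psmb8, a subunit of the immunoproteasome (−2.56 ± 0.16), and 3 non-classical class I genes, H2-T23, H2-Q6 and H2-Q7, of which the last pair are near copies. H2-T23 was at 126, 146 and 154 in HEC normal and 1998, 2896 and 2670 in BEC normal. Of 11 checkpoint ligands 4 (36.4%) were higher and 2 (18.2%), Cd40 (−1.47 ± 0.36) and Icosl, lower, against 17.1% and 15.1% of all genes. Among the higher were Cd274, which encodes PD-L1, at 2198, 2194 and 2192 against 422, 339 and 467, and Cd276, which encodes B7-H3 (1.63 ± 0.07).

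Of 13 tested lipid mediator genes 3 (23.1%) were higher and 5 (38.5%) lower, against 17.1% and 15.1% of all genes. The higher genes were Alox12, Aloxe3, an epidermal lipoxygenase, and Ptgds, a prostaglandin D synthase, of which Ptgds was at 95 to 118 in HEC normal and 0 in BEC normal. Ptgs1, which encodes cyclooxygenase-1, was at 197, 234 and 212 in HEC normal and 8042, 7970 and 7812 in BEC normal (−5.21 ± 0.13), and Ltc4s, the leukotriene C4 synthase, at 21, 41 and 20 against 4146, 5804 and 5415. Pla2g4a, the phospholipase that frees arachidonic acid, was lower (−1.99 ± 0.16), and Ptgs2 was not called. The other lower genes were Ptges, a prostaglandin E synthase (−1.42 ± 0.37), and Alox8, a lipoxygenase at no more than 21 in any library, whose call was lost in edgeR and without BEC normal replicate 1 or 3.

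Matrix genes were mostly lower in HEC normal. Of 33 tested collagens 22 (66.7%) were lower and 2 higher, with a median log2 fold change of −3.63. Col4a1, a chain of the vascular basement membrane, was at 39349, 40312 and 37961 in HEC normal and 175854, 177731 and 176546 in BEC normal (−2.17 ± 0.12), and Col4a2 was lower by a similar amount, although their exons overlap. Col18a1, the precursor of endostatin, was at 174, 123 and 191 against 35925, 37164 and 36785. Collagen genes held 0.121% ± 0.00361 of units in HEC normal and 0.611% ± 0.00349 in BEC normal. The fibrillar genes Col1a1 and Col3a1, typical of fibroblasts, were at 38 to 95 and at 3873 to 9057, and moved with the fibroblast list given above.

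Of 12 small leucine-rich proteoglycans and fibulins 10 (83.3%) were lower and 1 was higher. Bgn, which encodes biglycan, was at 339, 444 and 414 in HEC normal and 92437, 90123 and 100056 in BEC normal (−7.88 ± 0.15), and Fbln2, an elastic fibre protein, at 160, 151 and 100 against 58511, 63081 and 63487. The median of this list was −3.50, or −2.92 with genes at 0 in a group set to their bound. Of 15 matricellular genes 7 were lower and 2 higher. Fibronectin, Fn1, was at 7853, 9232 and 8323 against 130532, 92430 and 117967, and Ccn2, a matricellular target of mechanical signalling, at 1383, 1554 and 1775 against 20419, 23250 and 22598. Sparc, a collagen-binding protein, was lower by less (−1.18 ± 0.04), and Ccn1 was not called (0.06 ± 0.05). Metalloproteases and their inhibitors were lower in 20 of 38 (52.6%) and higher in 3, with Timp3 at 5824, 5775 and 6432 against 39977, 37335 and 37028. Of 35 laminins and integrins 16 were lower and 7 higher, among the lower Itgb1, the common beta chain of matrix integrins (−1.37 ± 0.06), and Lamb1 (−1.90 ± 0.07).

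Most mural genes were low in HEC normal and abundant in BEC normal. The part of mural or fibroblast RNA in the matrix values above was not tested. Acta2, the smooth muscle actin gene, was at 190, 235 and 182 in HEC normal and 42470, 43370 and 43243 in BEC normal. Tagln and Myl9, of the same contractile apparatus, were at 33 to 62 and 4 to 14 against 10818 to 13547 and 2937 to 3082, and exons of Tagln overlap those of Pcsk7. Cspg4, the NG2 proteoglycan of pericytes, was at 8, 0 and 4 against 1280, 1353 and 1255. Of 10 tested members 7 were lower and none higher. Myh11, the smooth muscle myosin, was at 11 to 40 in HEC normal and 12 to 19 in BEC normal, Kcnj8 was at 0 in all 6 libraries, and Des, Notch3 and Myh11 were not called. Pdgfra was also not called, at 1045 to 1155 against 972 to 1200, and Dcn, a fibroblast proteoglycan, was at 6 to 19 against 149 to 243. Of 10 tested fibroblast markers 5 (50%) were lower, but Dpt and Pi16 (20%) were higher. Dpt was at 0 in all BEC normal libraries. Across settings 0 to 2 fibroblast markers were called higher.

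**Figure D4:**
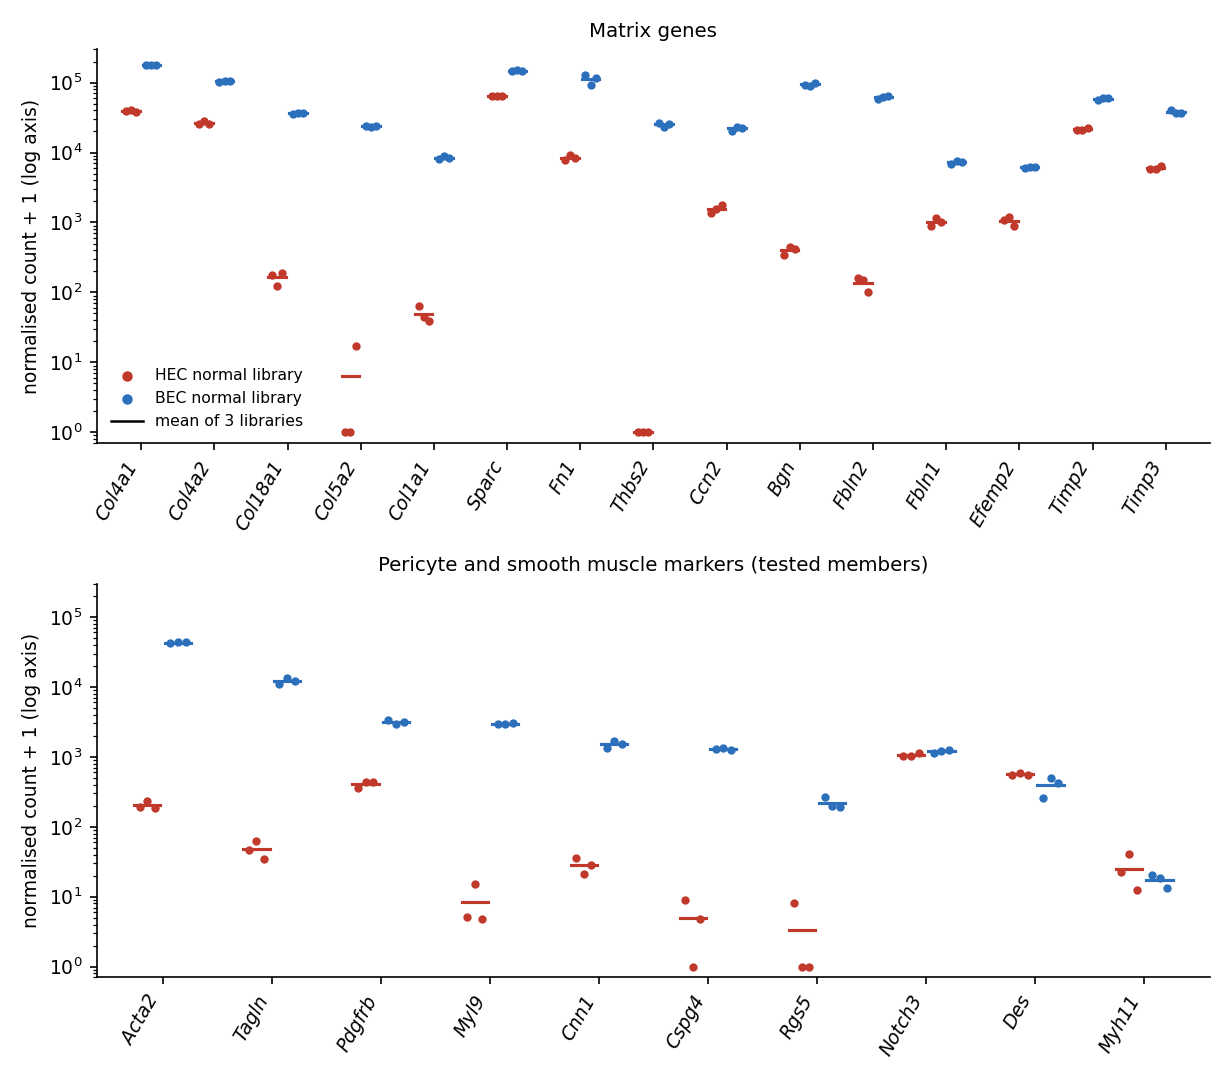
Normalised count plus 1, on a log axis, of each library (points) with the mean of 3 libraries (bars) for matrix genes (upper panel) and tested pericyte and smooth muscle markers (lower panel), HEC normal in red and BEC normal in blue. Bgn, Fbln2, Thbs2, Acta2 and Tagln are at least 10000 in each BEC normal library and at most 444 in each HEC normal library, whereas Notch3, Des and Myh11 lie close together.

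Capillary and arterial genes were mostly lower in HEC normal. Of 15 tested, 13 (86.7%) were lower and none higher, with a median log2 fold change of −3.41. Unc5b, a netrin receptor of arterial and tip endothelium, was at 1016, 899 and 830 in HEC normal and 21047, 19381 and 20741 in BEC normal. Jag1 (−1.88 ± 0.10) and Efnb2 (−1.05 ± 0.06), ligands that mark arterial endothelium, were lower, Efnb2 not with upper-quartile scaling, as was Kdr. Venous markers gave 3 lower and 1 higher of 11, with Vwf, von Willebrand factor, at 159, 201 and 183 against 1117, 817 and 1153, and Nrp2 and Ephb4 not called, Ephb4 passing without BEC normal replicate 1 (−1.03) or HEC normal replicate 2 (−1.04). The fat-handling genes of capillaries split, with 7 of 18 higher and 6 lower. Fabp4 was at 14363, 12471 and 12868 in HEC normal and 4415, 4953 and 5059 in BEC normal, whereas its relative Fabp5 was at 641, 633 and 536 against 5654, 5947 and 6030. Gpihbp1, which holds lipoprotein lipase on capillary walls, was at 43 to 93 in HEC normal and 335 to 428 in BEC normal, so both groups were low for it.

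Signalling to the vessel wall differed in its ligands and receptors. Of 16 tested genes of vascular tone 9 (56.2%) were lower and 2 higher. Ace, the angiotensin-converting enzyme, was at 597, 626 and 660 against 18215, 18157 and 18099, and Calcrl, the receptor for adrenomedullin, at 424, 335 and 417 against 16366, 11246 and 12303. Adm, adrenomedullin itself, ran the other way, at 11958, 9417 and 9666 against 701, 790 and 844 (3.73 ± 0.11). Nos3, the endothelial nitric oxide synthase, was high in both groups and not called. In the BMP and TGF-beta list 10 of 26 (38.5%) were lower and 1 higher. Id3, a direct target of BMP signalling, was at 1520, 2142 and 1939 against 9601, 10672 and 10586, while Bmp4 was the higher gene, at 11593, 14067 and 4514 against 888, 800 and 944. Semaphorins and plexins were lower in 16 of 30 (53.3%) and higher in 3, among the lower Sema3f, a repellent of endothelial cells (−2.15 ± 0.10).

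Growth factor and Notch genes moved in both directions. Of 17 VEGF and angiopoietin genes 5 (29.4%) were higher and 5 (29.4%) lower, against 17.1% and 15.1% of all genes. Their median of −0.20 changed sign between settings (−0.24 to 0.26). Among these genes were Vegfb at 9709, 10179 and 10524 in HEC normal and 1837, 2211 and 1966 in BEC normal, and Flt1, which was lower (−1.45 ± 0.09). Apln, the apelin ligand of sprouting endothelium, was abundant in both groups, at 57299 to 61481 and 44334 to 46532, and not called. Of 17 Notch genes 2 (11.8%) were higher, below the 17.1% of all genes, and 5 (29.4%) lower. Rbpj, the DNA-binding partner of Notch, was among the higher (1.35 ± 0.08). Of 16 coagulation genes 2 were higher and 7 (43.8%) lower. Procr, the endothelial protein C receptor, was at 84379, 85518 and 86689 against 36837, 38774 and 37757, and Gas6, a ligand of TAM receptors, at 29, 34 and 40 against 8042, 8242 and 8131. Of 24 lymphotoxin and NF-kB genes 3 (12.5%) were higher and 3 (12.5%) lower, neither share above that of all genes (17.1% and 15.1%). Nfkb2 (1.03 ± 0.06) and Relb (1.08 ± 0.13), partners in the pathway downstream of the lymphotoxin receptor, were just over the fold threshold, and lost their calls without BEC normal replicate 1 (Nfkb2, 0.97) or replicate 2 (Relb, 0.93). Of 14 retinoic acid genes 2 (14.3%) were higher and 2 (14.3%) lower, again no more than over all genes. Cyp26b1, which degrades retinoic acid, was among the higher (2.52 ± 0.10).

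Hox genes were mostly higher in HEC normal. These transcription factors keep the position of a cell along the body axis, and their order on the chromosome follows that axis. Of 27 tested, 19 (70.4%) were higher and 1 was lower, with a median log2 fold change of 1.73. Hoxd8 was at 8139, 10103 and 7894 in HEC normal and 2159, 2471 and 2287 in BEC normal. Hoxa7 was at 1909, 2041 and 1908 against 154, 175 and 156 (3.59 ± 0.13), and Hoxb9 at 1623, 1427 and 1511 against 23, 14 and 6. Hoxa9 and Hoxa13 were at 0 in all BEC normal libraries. Hoxb7 was not called (0.47 ± 0.13), and Hoxb8 was not called, with 1 HEC normal library at 3278 and the others at 1016 and 748.

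**Figure D5:**
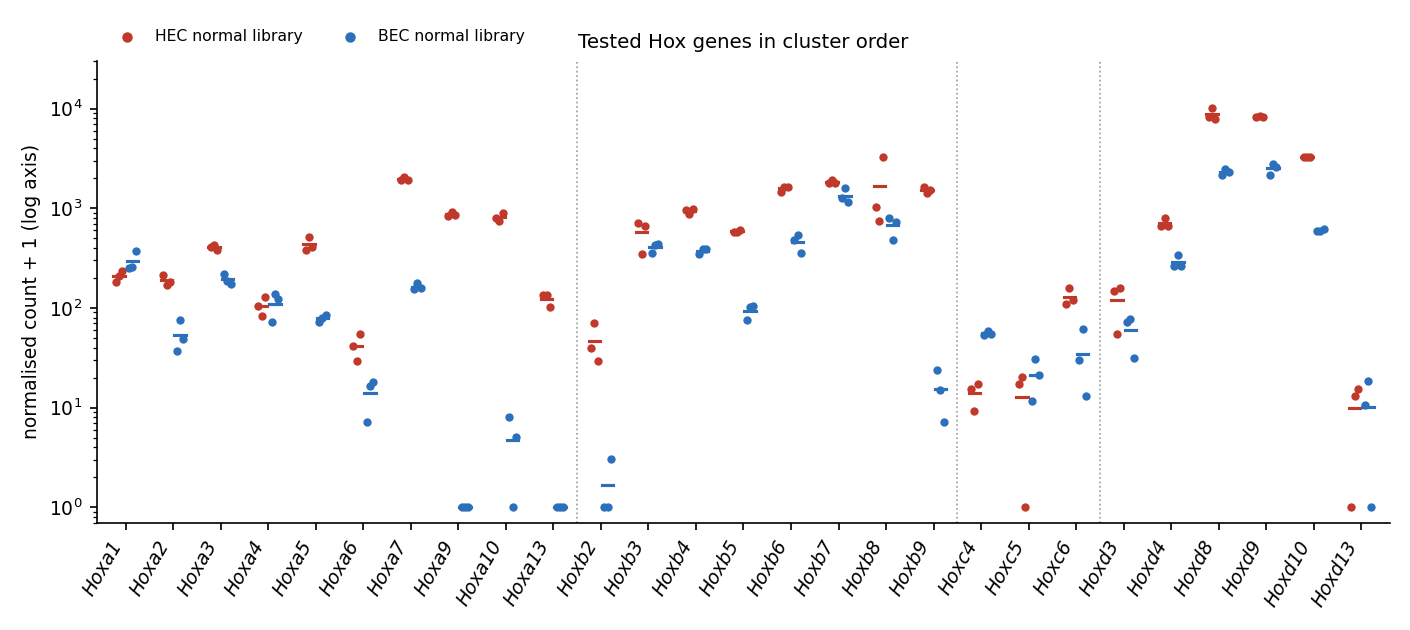
Normalised count plus 1, on a log axis, of each library (points) with the mean of 3 libraries (bars) for the 27 tested Hox genes in order of cluster and number, HEC normal in red and BEC normal in blue, with dotted lines between clusters a, b, c and d. Hoxa9 and Hoxa13 are at 0 in BEC normal, and Hoxd8 and Hoxd9 are the most abundant in both groups.

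Endothelial transcription factors were split, with 7 (22.6%) of 31 higher and 8 (25.8%) lower and a median of −0.02 that changed sign between settings (−0.23 to 0.11). Klf2, induced by laminar flow, was at 15572, 15090 and 15677 in HEC normal and 4955, 6197 and 5609 in BEC normal, and Tal1, a factor of blood and vessel progenitors, was higher (1.88 ± 0.08). Epas1, the hypoxia factor HIF-2alpha, was at 1121, 1392 and 1160 against 8130, 7868 and 8014, and Ets2 was lower (−2.50 ± 0.06). Immediate early genes, which also respond to tissue dissociation, were higher in 11 of 24 (45.8%) and lower in 3. Jun was at 44226, 41998 and 43205 against 6036, 6503 and 6069 (2.80 ± 0.04), and Fosl2 differed by 2.49 ± 0.04, whereas Junb was not called. The nodes were digested longer than the fat pads, and the part of digestion in these values was not tested.

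Of 22 cholesterol synthesis and uptake genes 11 (50%) were lower and none higher, with Sqle, the squalene epoxidase, at 2022, 1810 and 1892 in HEC normal and 4438, 4234 and 4278 in BEC normal (−1.18 ± 0.08), and Fdps, the farnesyl diphosphate synthase, lower (−1.75 ± 0.12). Coat and cargo genes of the ER to Golgi pathway were lower in 10 of 42 (23.8%) and higher in none, with Copa, a COPI coat subunit, at −1.58 ± 0.04. Of 73 nuclear genes of the respiratory chain 1 was higher and 2 were lower. Of 13 mitochondrially encoded protein-coding genes 7 (53.8%) were lower and none higher, among the lower mt-Co2 (−2.18 ± 0.14). Yet mt-Co1 was at 773839 to 894688 in HEC normal and 553165 to 599770 in BEC normal. A wider set of 36 tested mitochondrial genes held 2.33% ± 0.108 of units in HEC normal and 2.58% ± 0.375 in BEC normal. Glycolysis genes, with 2 entries of Aldoa, were not called in 16 of 22, Aldoa and the glucose transporter gene Slc2a1 (1.6 ± 0.10) being among the higher and Ldhb, at 12, 22 and 11 against 1754, 2238 and 2116, among the lower. Of 15 heat shock genes 2 (13.3%) were higher and 2 (13.3%) lower. Hspb1 was at 55588, 50604 and 51761 against 6330, 8277 and 7523, and Hspb8 was at 8, 0 and 11 against 4557, 6003 and 5434.

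The groups labelled HEC tumour and BEC tumour share no library with the tumour-free groups, and the comparison was repeated in them, with the BECs then taken from the tumour. BEC tumour also differed from BEC normal in features given above. Ddx3y, Eif2s3y and Kdm5d were at 0 in every BEC tumour library, Xist was at 22959 to 41073 and Cdkn2a at 1692 to 3176. The part of these differences in the repeat was not tested. There 2081 genes (11.2%) were called higher in HECs and 1975 (10.7%) called lower. Of the 3165 genes higher in HEC normal, 1143 were called higher there too, which is 36.1% of the tumour-free calls and 54.9% of the calls in tumour-bearing mice, and 118 were called lower. Of the 2800 lower genes, 1122 were called lower again, 40.1% and 56.8%, and 120 higher. The difference of the log2 fold changes passed on adjusted p in 1816 genes called higher and 1734 called lower without tumours.

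Glycam1 was at 70725 ± 954 in HEC tumour (mean ± SD, n = 3) and 0 in BEC tumour, and Chst4 at 60244 ± 987 and 0. Fut7 was at 48752 ± 29879 in HEC tumour, with 1 library far below the others, and 7.16 ± 3.88 in BEC tumour. Alox12 was at 72331 ± 1411 and 32.3 ± 19.2, a larger difference than without tumours (interaction 2.72 ± 0.28, adjusted p 1.46e-21 in DESeq2). Thbs2 was at 24.1 ± 7.37 and 5153 ± 754. Hoxb9 was at 1094 ± 29.1 in HEC tumour and 1647 ± 140 in BEC tumour, so that the order of the groups was opposite to that without tumours. Chst2 was again at 0 in every HEC library, with 133 ± 21.5 in BEC tumour.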

How the data were processed

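Bulk RNA-seq of sorted endothelial cells was deposited as 1 table with a value per gene and library. The authors aligned reads with STAR, counted them with featureCounts on GRCm38 and tested with DESeq2. Although named raw, the deposited values rise in steps of 3.67 to 3.71, and the authors describe no scaling, so they were handled like expected counts and rounded to whole numbers. What made the step is not given in the sources used here. Gene names came from the annotation of GRCm38, and 260 of 55401 identifiers had none.

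DESeq2 1.42.0 (R 4.3.3) was fitted to the 12 endothelial libraries in 4 groups, after removing genes with a mean under 10. Calls needed a Benjamini-Hochberg adjusted p under 0.05 and a fold over 2. The 12 largest differences per direction (protein-coding, mean of at least 1000 in the higher group), the 10 highest genes per kilobase and, per list, up to 4 called and 2 uncalled genes by level were named. Checks of Y-linked, liver and cell-cycle genes, and the other genes named outside this rule, were chosen after values were seen. Groups, lists and tests were chosen with earlier results of these data known. Library totals were 56410964 to 79357993 units, and intervals of depth cover counting error only. An exact permutation test of 3 against 3 libraries cannot go below p = 0.1, so p-values come from the fit across genes. Alternatives were edgeR 4.0.16, other size factors, filters and thresholds, a replicate block and leaving out each library. Some genes that the rule names are not reported here.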

Additional observations from a re-analysis of the deposited data

Results flagged for a closer look

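Pecam1 and the 24 genes named for the largest differences, with the other markers, were compared with the same contrast in tumour-bearing mice, as the log2 fold change of HEC tumour over BEC tumour less that of HEC normal over BEC normal (DESeq2 interaction term, ± SE). The difference passed on adjusted p in 16 of these 26 genes, as it did in 1816 of 3165 and 1734 of 2800 over all genes called higher and lower. Most of the 26 were chosen for a large tumour-free difference, which this measure subtracts, so a smaller contrast with tumours is built into the choice. Among genes higher in HEC normal the tumour-bearing contrast was smaller or turned by −9.56 ± 1.2 for Prss52, −7.16 ± 0.43 for Cyp19a1, −4.98 ± 0.12 for Atg9b, −7.28 ± 0.27 for Hoxb9, −6.19 ± 1.09 for Ccl4, −3.23 ± 0.39 for Ifi209 and −9.81 ± 0.46 for Sprr2a1. It was larger by 2.72 ± 0.28 for Alox12 and by 4.91 ± 1.34 for Alb. Among genes lower in HEC normal it was less negative, or turned, by 9.31 ± 1.21 for Thbs2, 7.07 ± 1.32 for Obsl1, 3.49 ± 1.44 for Kif1a, 5.83 ± 1.43 for Pir, 7.6 ± 2.96 for Stmn2 and 7.37 ± 1.35 for Has2. The fit put no prior on fold changes, so values for genes at 0 in a group are poorly determined and are no bound. Pecam1 differed by 0.40 ± 0.06, with a tumour-free difference under 2-fold.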

How the results depend on the processing

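Tested against a log2 fold change of 1, 1636 genes were higher and 1717 lower in HEC normal, and 970 were called the same way in tumour-bearing mice. With no fold threshold these counts were 5815, 5902 and 5868. Leaving out 1 library at a time gave 2959 to 3222 higher, 2663 to 2805 lower and 2168 to 2200 called the same way. edgeR gave 3147, 2619 and 2076, and values divided by the step 2498, 2281 and 1858. Scaling moved the median of all genes by at most 0.05 on the log2 scale. With a replicate block the counts were 3181, 2819 and 2233. Same-numbered libraries had correlations of deviations of 0.054, 0.055 and 0.019. Each library correlated best with its own number, but all values were under the 0.1 needed for pairing, so the numbers were not taken as pairs. The fit on the 6 tumour-free libraries alone gives no value for the tumour-bearing contrast. Of 172 genes examined one by one, 134 kept their call under every alternative that gave them a value and none changed direction. A value was had for 119 of them among genes whose exons overlap no other, 165 with values divided by the step, 168 with the filter on the 6 tumour-free libraries, 170 with these libraries alone, and all 172 otherwise. Of the 172, 25 uncalled genes passed with no fold threshold, and 13 lost their call when tested against a 2-fold difference. The others that changed stand beside their values.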
